A study of Rattus norvegicus with 6 samples.

Results

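The unfolded protein response and the integrated stress response were followed here through 10 genes, 10 of the 38445 genes in the count files: Eif2ak3, Ern1 and Atf6, which code for stress sensors of the endoplasmic reticulum (ER), the transcription factor genes Atf4, Xbp1, Ddit3 and Atf3, and the effector or target genes Trib3, Chac1 and Herpud1. They were found in the files by their rat gene symbols, and the choice of these genes was made with earlier results of these data known. The RNA came from the amygdala of adult male Sprague Dawley rats. Controls received saline and the others ethanol (1 g/kg), both injected intraperitoneally, and the tissue was taken about 1 h afterwards. The study describes collection with or without a maze test just before it and does not say which applied to these rats. Each group had 6 rats, and RNA of 2 rats was pooled for each library, so that 3 control and 3 ethanol libraries were compared and differences between the rats of a pool were not measured.

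Proteins that enter the ER must fold there, and unfolded protein is sensed by PERK (the product of Eif2ak3), IRE1 alpha (Ern1) and ATF6. PERK phosphorylates the translation initiation factor eIF2, which lowers protein synthesis in general but favours translation of ATF4. IRE1 alpha splices the Xbp1 mRNA, and ATF6 is cleaved to release an active transcription factor. The integrated stress response is the eIF2 and ATF4 branch, which is also entered through other kinases when amino acids or heme run short or when viral RNA is sensed. Splicing, cleavage, phosphorylation and translation are not visible in counts per gene, so the values below describe mRNA amounts only.

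Promoter sequences of 7 of the 10 genes were found in the RefSeq table of the GRCr8 assembly, which is a later build than the one used for counting. The 250 bases before the start of transcription were searched on both strands for 5 textbook motifs: the ER stress element ERSE (CCAAT and CCACG separated by 9 bases), its variant ERSE-II (ATTGGNCCACG), the C/EBP-ATF element CARE (TTGCATCA), the full cAMP response element CRE (TGACGTCA) and the XBP1-type element UPRE (TGACGTGG). ERSE, ERSE-II and UPRE are known as sites of ATF6 and XBP1, and CARE as a site of ATF4 together with C/EBP proteins. ERSE was present in Xbp1 and in 0.0657% of all 33469 promoters, ERSE-II in Herpud1 and in 0.0418%, and CARE in Chac1 and Herpud1 and in 0.693%. CRE (1.59% of all promoters) and UPRE (0.52%) were in none of the 7. Atf4, Ddit3, Eif2ak3 and Trib3 had no match, and for Atf3, Atf6 and Ern1 there was no sequence to search. Only exact letters within the 250 bases were searched, so sites further upstream or with other letters would be missed. The sequences of the 3 genes with a match are shown, with the matched letters in capitals. They lie at chr3:126795881-126796130 on the plus strand for Chac1, at chr19:10614708-10614957 on the minus strand for Herpud1 and at chr14:84604373-84604622 on the plus strand for Xbp1, all in GRCr8.
Chac1: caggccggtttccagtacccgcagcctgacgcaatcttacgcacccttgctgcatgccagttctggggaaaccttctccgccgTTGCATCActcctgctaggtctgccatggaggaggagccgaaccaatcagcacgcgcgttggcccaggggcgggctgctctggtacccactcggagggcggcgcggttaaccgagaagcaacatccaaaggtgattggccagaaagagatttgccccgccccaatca
Herpud1: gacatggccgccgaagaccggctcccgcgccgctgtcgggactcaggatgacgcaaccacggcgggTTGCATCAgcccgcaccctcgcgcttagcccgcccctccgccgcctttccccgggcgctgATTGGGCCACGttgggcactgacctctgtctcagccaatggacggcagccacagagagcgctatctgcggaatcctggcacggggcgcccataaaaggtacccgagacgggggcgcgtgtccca
Xbp1: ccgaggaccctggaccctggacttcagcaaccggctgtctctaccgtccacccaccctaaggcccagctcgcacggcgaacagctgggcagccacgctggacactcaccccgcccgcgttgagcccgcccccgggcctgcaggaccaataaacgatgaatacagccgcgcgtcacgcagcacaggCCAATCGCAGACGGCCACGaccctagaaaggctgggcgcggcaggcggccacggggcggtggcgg

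In Chac1 the CARE match began 167 bases before the start of transcription. In Herpud1 the CARE match began 184 bases and the ERSE-II match 124 bases before it, and in Xbp1 the ERSE match began 65 bases before it. A match is a description of the letters and not a measured binding site.

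Library totals ranged from 62576504 to 70755739 counts. Levels are given as CPM, the count scaled to the size of the library, and 3 counts, the upper limit that a count of 0 allows, correspond to 0.0424 to 0.0479 CPM. This limit covers counting error only. Markers of glutamatergic neurons, GABA neurons, astrocytes and oligodendrocytes were detected, with no listed marker at 0 in all libraries, so the labelled brain tissue was not contradicted. The 10 choroid plexus markers summed to 787 to 1471 CPM for control and 102 to 730 CPM for ethanol, and the 7 ependymal and cilia markers to 82.0 to 119 CPM and 66.9 to 76.7 CPM, so that for both lists the summed ranges of the groups were apart. In the control libraries and ethanol replicate 3 the choroid plexus sum was carried largely by Ttr. In ethanol replicates 1 and 2 Ttr was at 5.42 and 4.34 CPM, and most of the sum was Enpp2 (89.1 and 114 CPM). The sum of ethanol replicate 3 (730 CPM) was near control replicate 1 (787 CPM) and far from ethanol replicates 1 and 2 (102 and 128 CPM). Of the 9 choroid plexus markers tested, 0 had an adjusted p below 0.2 by edgeR's quasi-likelihood test. At an unadjusted p below 0.05 by this test 5 of the 9 were lower, against 2.57% of all genes tested. For 4 of the 9 all ethanol libraries were below all controls, against 5.19% of all genes tested, and for 5 the groups overlapped. Of the 6 ependymal and cilia markers tested, 5 were lower at this unadjusted p and 4 were lower without overlap. In such tissue, fewer cells of a type and less RNA per cell cannot be told apart.

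None of the stress-response genes separated the ethanol from the control group by the test across all genes. Of the 10 genes, 9 passed the filter on low counts and were tested, and 0 of the 9 had an adjusted p below 0.2 (edgeR quasi-likelihood, Benjamini-Hochberg over 18141 genes), against 0% of all genes. At an unadjusted p below 0.05 there were 0 of the 9 genes, against 4.15% of all genes tested. DESeq2, edgeR's likelihood ratio test and limma-voom also gave 0 of the 9 at an unadjusted p below 0.05, where they called 646, 693 and 780 of the 18141 genes. At an adjusted p below 0.2 they called 75, 77 and 0 of all genes and 0 of the 9. The log2 fold changes of the 9 genes lay between -0.06 and 0.11, with a median of 0.03, and the median over all genes tested was 0.01. For the 8 tested genes other than the weakly expressed Atf3, the 95% intervals reached at most a 1.25-fold higher level and at the lower end 0.814 of the control level.

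**Figure D1:**
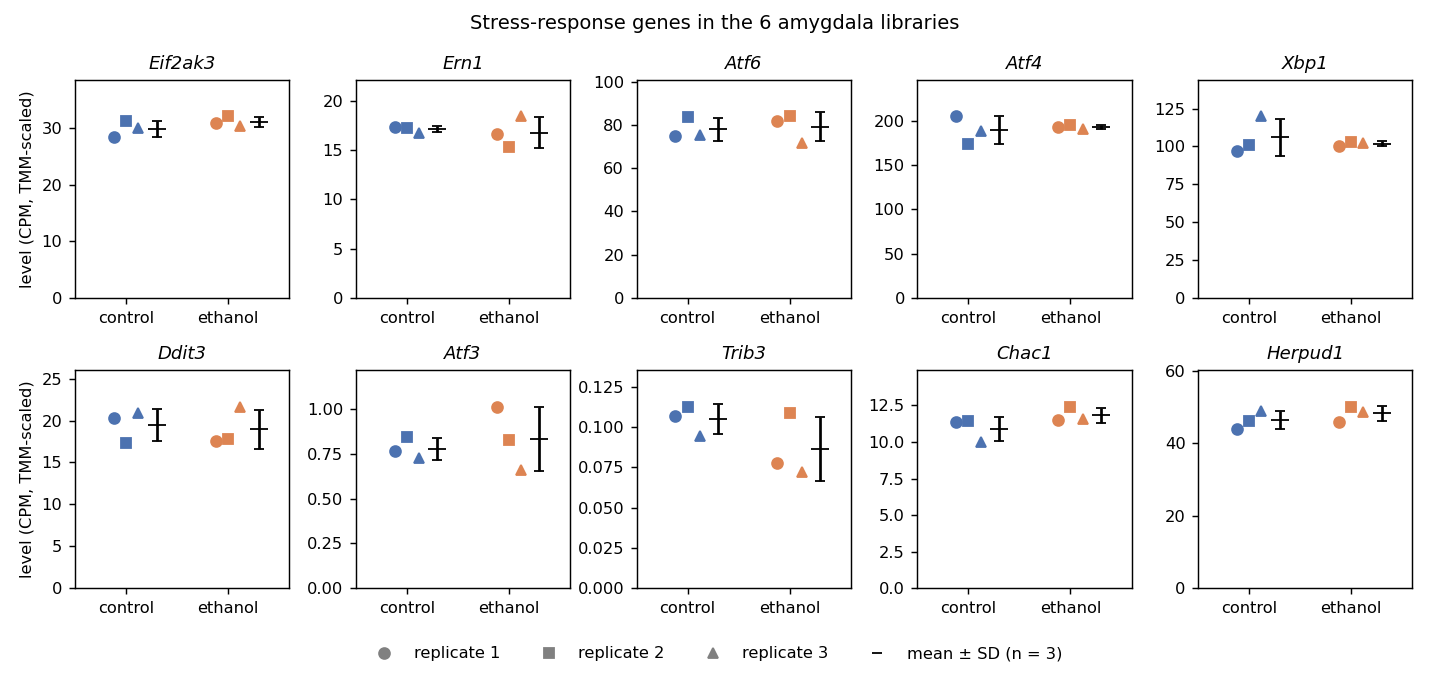
Level of each of the 10 stress-response genes in CPM (vertical axes from 0, scaled by edgeR's TMM method), 1 symbol per library with control in blue and ethanol in orange, and the mean ± SD of 3 libraries in black. Control and ethanol symbols overlapped for 9 of the genes, and for Chac1 the lowest ethanol library (11.5 CPM) stood just above the highest control library (11.4 CPM).

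The sensors were described first. Eif2ak3 (NCBI gene 29702), which codes for PERK, is annotated with 19 exonic blocks on chromosome 4 (98648513 to 98709695, Rnor_6.0, the build of all gene positions here). Its level was 28.5, 31.3 and 30.02 CPM in control replicates 1, 2 and 3 and 30.9, 32.2 and 30.5 CPM in ethanol replicates 1, 2 and 3. The groups overlapped, with control replicate 1 lowest and ethanol replicate 2 highest. The means were 29.9 ± 1.40 CPM (SD, n = 3 libraries) and 31.2 ± 0.886 CPM (SD, n = 3), and the fitted log2 difference was 0.06 (standard error 0.06, 95% interval -0.09 to 0.21, adjusted p = 1.0 by edgeR's quasi-likelihood test).

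Ern1 (NCBI gene 498013), which codes for IRE1 alpha, a kinase and endoribonuclease, is annotated with 24 exonic blocks on chromosome 10 (94588555 to 94682072). The control libraries were close together at 17.4, 17.2 and 16.8 CPM, and the ethanol libraries were at 16.6, 15.3 and 18.4 CPM. The ethanol libraries thus lay on both sides of the control libraries, with a coefficient of variation of 0.0953 against 0.0188. The log2 fold change was -0.03 (standard error 0.09, 95% interval -0.23 to 0.17, edgeR adjusted p = 1.0).

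Atf6 (NCBI gene 304962, chromosome 13 from 89053457 to 89242531), the sensor that is itself a transcription factor precursor, was at 74.8, 83.8 and 75.1 CPM in the control and 81.9, 84.1 and 71.5 CPM in the ethanol libraries. Ethanol replicate 3 was the lowest library and ethanol replicate 2 the highest. On the log2 scale the fold change was 0.02 (standard error 0.08, 95% interval -0.16 to 0.21, edgeR adjusted p = 1.0).

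The transcription factor genes followed the same pattern. Atf4 (NCBI gene 79255, chromosome 7 from 121480723 to 121482781), the central factor of the integrated stress response, was the most abundant gene of the set. It was at 205, 174 and 189 CPM in the control and at 193, 196 and 191 CPM in the ethanol libraries. All 3 ethanol libraries lay within the range of the controls. The fitted log2 fold change was 0.03 (standard error 0.07, 95% interval -0.14 to 0.20, edgeR adjusted p = 1.0).

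Xbp1 (NCBI gene 289754, chromosome 14 from 85753736 to 85758820), whose promoter holds the ERSE match shown above, was at 97.2, 101 and 120 CPM in the control and at 100, 103 and 102 CPM in the ethanol libraries. Control replicate 3 stood above the other libraries, and the ethanol libraries were close together. The log2 fold change was -0.06 (standard error 0.08, 95% interval -0.25 to 0.14, edgeR adjusted p = 1.0), and without control replicate 3 it was 0.04. Counts summed over all exons do not separate the spliced from the unspliced Xbp1 mRNA.

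Ddit3 (NCBI gene 29467, chromosome 7 from 70578564 to 70585074) codes for CHOP, a factor tied to cell death under lasting ER stress. It was at 20.3, 17.3 and 20.9 CPM in the control and at 17.5, 17.8 and 21.7 CPM in the ethanol libraries. In each group 1 or 2 libraries were near 17 to 18 CPM and the others near 20 to 22 CPM, so that the spread within the groups was larger than the difference between their means. On the log2 scale the fold change was -0.04 (standard error 0.11, 95% interval -0.30 to 0.22, edgeR adjusted p = 1.0). The exons of Ddit3 share 64 bases with Mars1 on the opposite strand, and the counting used the strand. For the other 9 genes no exonic base was shared with another gene on either strand.

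Atf3 (NCBI gene 25389, chromosome 13 from 109817892 to 109849632) codes for a factor that is induced by ATF4 and also by neuronal injury. It was weakly expressed, with 50, 60 and 46 counts in the control and 65, 53 and 46 counts in the ethanol libraries. These correspond to 0.765, 0.845 and 0.725 CPM and to 1.01, 0.824 and 0.661 CPM, so that the ethanol group held both the highest and the lowest library. The fitted log2 fold change was 0.09 (standard error 0.21, edgeR adjusted p = 1.0), and the 95% interval from -0.39 to 0.58 includes a 1.49-fold higher level.

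Trib3 (NCBI gene 246273, chromosome 3 from 147814056 to 147819650), a pseudokinase gene that CHOP and ATF4 induce and whose product inhibits the kinase AKT, was barely detected. It had 7, 8 and 6 counts in the control and 5, 7 and 5 counts in the ethanol libraries, or 0.105 ± 0.00922 CPM (SD, n = 3) and 0.0862 ± 0.0198 CPM (SD, n = 3). It did not pass the filter, and the exact permutation test on its log2 CPM gave p = 0.3 (2-sided, n = 3 against 3, smallest possible p 0.1). In the fit without a filter its log2 fold change was -0.28 (edgeR adjusted p = 1.0).

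Chac1 (NCBI gene 362196, chromosome 3 from 111160205 to 111163425) codes for an enzyme that degrades glutathione and is a sensitive target of ATF4. It was at 11.3, 11.4 and 9.97 CPM in the control and at 11.5, 12.4 and 11.5 CPM in the ethanol libraries. This was the only gene of the set whose groups did not overlap, 1 of 9, and 8.85% of all genes tested had groups that did not overlap. The gap was small, since control replicates 1 and 2 were at nearly the same level as ethanol replicates 1 and 3. The mean level was 10.9 ± 0.818 CPM (SD, n = 3) in the control and 11.8 ± 0.522 CPM (SD, n = 3) in the ethanol group, a 1.08-fold difference (log2 fold change 0.11, standard error 0.09, 95% interval -0.09 to 0.32, edgeR unadjusted p = 0.236 and adjusted p = 1.0). The exact permutation test gave p = 0.1, the smallest that 3 libraries against 3 allow. Groups without overlap always give this value, so it adds nothing to the lack of overlap. A larger change in either direction was found for 33.6% of all genes tested.

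Herpud1 (NCBI gene 85430, chromosome 19 from 11046905 to 11057440) codes for an ER membrane protein that takes part in the degradation of misfolded proteins and carries both a CARE and an ERSE-II match. It was at 44.0, 46.2 and 48.8 CPM in the control and at 46.0, 50.1 and 48.6 CPM in the ethanol libraries, and the groups overlapped. The log2 fold change was 0.06 (standard error 0.06, 95% interval -0.09 to 0.21, edgeR adjusted p = 1.0).

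**Figure D2:**
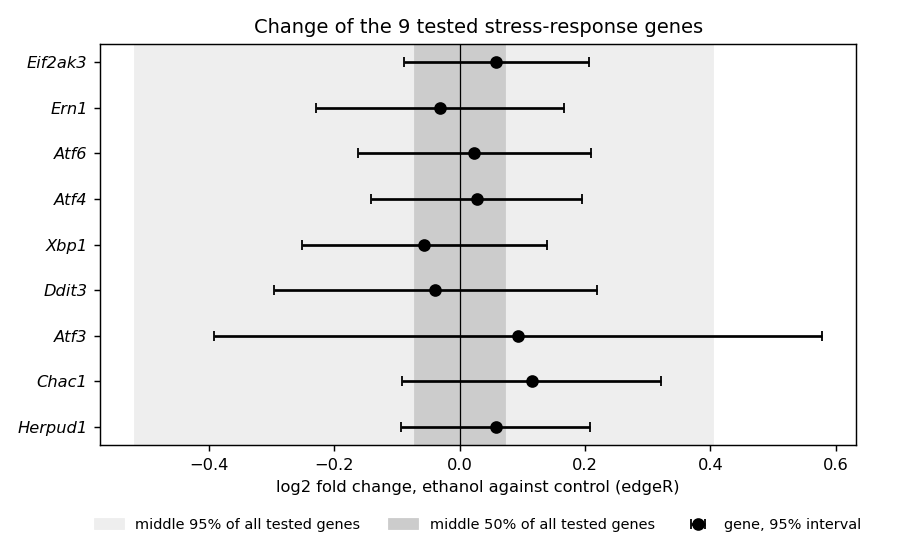
Log2 fold change of the 9 tested genes, ethanol against control, from edgeR's quasi-likelihood fit (points, with 95% intervals as bars) over the range that holds the middle 50% (dark grey, -0.07 to 0.07) and the middle 95% (light grey, -0.52 to 0.40) of all 18141 genes tested. Every interval includes 0, and only that of Atf3 reaches beyond the light band.

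The highest and lowest libraries differed from gene to gene. Relative to the control mean, the median of the 9 tested genes on the log2 scale was -0.02, 0.01 and -0.00224 for control replicates 1, 2 and 3 and 0.03, 0.08 and 0.03 for ethanol replicates 1, 2 and 3. Ethanol replicate 2 was the highest library for 4 of the 9 genes (Atf6, Eif2ak3, Chac1 and Herpud1), and it was also the lowest library for Ern1. Ethanol replicate 3 was highest for Ddit3 and Ern1 and lowest for Atf3 and Atf6. The genes whose levels over the 6 libraries were most like those of Chac1, the member with the smallest p, were Cdh10, Abcg2 and Med26 (Pearson correlations of log2 CPM of 0.989, 0.986 and 0.986). These were the highest of 14179 genes ranked over only 6 libraries, and they are given as a description.

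Per exonic length, the levels of the 10 genes covered a wide range that was the same in both groups. In the control group Atf4 was highest with 134 ± 10.99 CPM per kb of exon (SD, n = 3), followed by Xbp1 with 57.6 ± 6.69, Herpud1 with 22.8 ± 1.19 and Atf6 with 10.7 ± 0.701 CPM per kb. Ddit3 with 9.66 ± 0.948 CPM per kb did not differ from Atf6 beyond the spread of the libraries. Chac1 (6.95 ± 0.522 CPM per kb) and Eif2ak3 (6.23 ± 0.291 CPM per kb) likewise overlapped, and Ern1 (2.39 ± 0.0449), Atf3 (0.412 ± 0.0321) and Trib3 (0.0732 ± 0.00644) followed at separate levels. The mRNA of PERK was thus above that of IRE1 alpha in every library, and Atf3 and Trib3 were the least abundant.

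**Figure D3:**
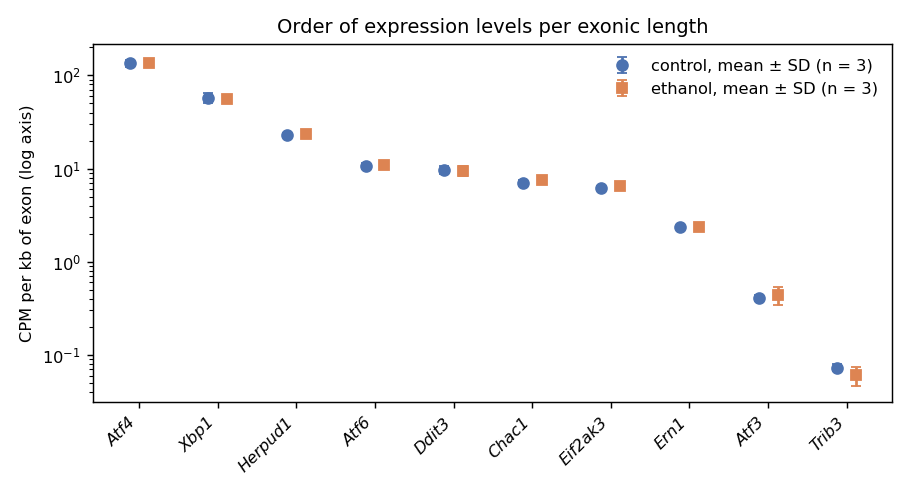
Level of each gene in CPM per kb of exon (log axis), as mean ± SD of 3 libraries, for control (blue circles) and ethanol (orange squares). The order from Atf4 to Trib3 is the same in both groups, and the levels of the 2 groups lie side by side for each gene.

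The wider pathway was described with 5 gene lists, of which 65 of 69 genes were tested. Of these 65 genes, 0 had an adjusted p below 0.2 by edgeR's quasi-likelihood test, and 2 had an unadjusted p below 0.05, Edem1 and Ddit4, both higher in the ethanol group (1.57% of all genes tested were higher at this p, and 2.57% lower). Groups that did not overlap were found for 5 of the 65 genes, all higher in the ethanol libraries, against 3.66% of all genes tested that were higher without overlap and 5.19% that were lower. The median log2 fold change of the 65 genes was 0.01. Of the 65 genes, 36 (55.4%) were above 0, against 52.6% of all genes tested. The counts above and below 0 of each list below are to be read beside this share.

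Of 16 ER chaperone and folding enzyme genes, the main targets of ATF6 and XBP1, 3 had a value above 0 and 13 a value below 0, with a median log2 fold change of -0.04 and a range from -0.22 to 0.04. None had an unadjusted p below 0.05. Hspa5, which codes for the chaperone BiP and is the classical readout of the unfolded protein response, was named after its values were seen. It was at 423, 411 and 550 CPM in the control and at 446, 394 and 424 CPM in the ethanol libraries (log2 fold change -0.13, standard error 0.12, edgeR adjusted p = 1.0). Control replicate 3 was highest for Hspa5 as it was for Xbp1, and without that library 9 of the 16 genes were above and 7 below 0. With library size alone in place of TMM scaling, 1 was above and 15 were below 0. The most abundant genes of the list, Canx, Hsp90b1 and Calr, code for the chaperones calnexin, GRP94 and calreticulin and had log2 fold changes of -0.01, -0.05 and -0.00766. Dnajc3, Pdia4 and Ero1b had the smallest p of the list (edgeR unadjusted p = 0.215, 0.228 and 0.230). Their log2 fold changes were -0.12, -0.14 and -0.11, and their groups overlapped. The part of the choroid plexus markers, whose sum was 787 to 1471 CPM in control and 102 to 730 CPM in ethanol libraries, in the values of this list was not tested.

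Of 13 tested genes of ER translocation and ER-associated degradation, which carry proteins into the ER and misfolded ones out of it, 10 were above and 3 below 0, with a median log2 fold change of 0.01. Edem1 codes for a lectin-like protein that hands misfolded glycoproteins to degradation and is known as a target of XBP1. It was at 34.2, 36.8 and 38.4 CPM in the control and at 41.1, 41.9 and 46.8 CPM in the ethanol libraries. No control library reached the lowest ethanol library. The difference was 36.5 ± 2.13 CPM against 43.3 ± 3.07 CPM (SD, n = 3 each) or 0.25 on the log2 scale (standard error 0.08, edgeR unadjusted p = 0.0123 and adjusted p = 1.0). Without control replicate 1 the edgeR unadjusted p was 0.0592. Of the other degradation genes, Derl1 had a log2 fold change of 0.06, Edem2 of 0.07, Sel1l of 0.03, Os9 of 0.04 and Vcp, the ATPase that pulls proteins out of the membrane, of 0.01.

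Of 11 genes for other eIF2 kinases, eIF2 and eIF2B subunits and eIF2 phosphatase subunits, 7 were above and 4 below 0, and 0 had an unadjusted p below 0.05. Ppp1r15a codes for GADD34, which brings a phosphatase to eIF2 and so ends the response. It was at 20.8, 20.7 and 19.9 CPM in the control and at 23.1, 21.2 and 23.3 CPM in the ethanol libraries. The groups did not overlap, with a log2 fold change of 0.14 (standard error 0.07, edgeR unadjusted p = 0.0743 and adjusted p = 1.0). The same held for the eIF2B subunit genes Eif2b1 and Eif2b2, with log2 fold changes of 0.06 and 0.09 (unadjusted p = 0.341 and 0.221 by edgeR's quasi-likelihood test). Groups without overlap were thus found for 3 of the 11 genes, all higher in the ethanol libraries, against 3.66% of all genes tested. The kinase gene Eif2ak1, the eIF2 alpha subunit gene Eif2s1 and the constitutive phosphatase subunit gene Ppp1r15b had log2 fold changes of 0.03, -0.05 and 0.05.

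Of 18 tested targets of ATF4, 12 were above and 6 below 0, with a median log2 fold change of 0.05. Ddit4, which codes for REDD1, an inhibitor of mTORC1, had the smallest p. It was at 61.1, 60.6 and 56.8 CPM in the control and at 67.8, 84.8 and 90.5 CPM in the ethanol libraries. The groups were apart for Ddit4, ethanol replicate 1 least so. On the log2 scale the fold change was 0.44 (standard error 0.10, edgeR unadjusted p = 0.00298 and adjusted p = 0.85). Its adjusted p was 0.0753 with DESeq2 and 0.0796 with edgeR's likelihood ratio test, and it ranged from 0.0753 to 1.0 over all alternatives. Ddit4 is also a known target of the glucocorticoid receptor, and which of its regulators had a part in these values was not tested.

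The amino acid genes of this list had smaller differences. Slc3a2, the heavy chain of amino acid exchangers, had a log2 fold change of 0.16 (standard error 0.07, edgeR unadjusted p = 0.0616), Psat1 of serine synthesis 0.13 (standard error 0.14) and the cystine transporter gene Slc7a11 -0.06 (standard error 0.14). Gdf15, which codes for a secreted stress hormone, was near the limit of detection, with 9, 32 and 14 counts in the control and 1, 4 and 16 counts in the ethanol libraries (log2 fold change -1.36, standard error 0.74, edgeR adjusted p = 1.0), and the groups overlapped. Nupr1 and Aldh18a1 were listed at 0 in all libraries, as were Derl3 and Ern2 of the other lists, which does not show that these genes are not expressed, since a count of 0 for Nupr1 and Aldh18a1 is unusual for brain tissue.

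Of 7 tested genes for relatives of ATF6, the proteases that cleave it and the IRE1 adaptor TRAF2, 4 were above and 3 below 0, and none had an unadjusted p below 0.05. Mbtps1, which codes for the protease that makes the first cut in ATF6, had a log2 fold change of -0.02, Atf6b of 0.01, and Creb3, Creb3l1 and Creb3l2 of 0.05, 0.20 and -0.09.

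A pair of lists was set beside these, since Atf3 and Ddit4 are also responsive to other signals. The median log2 fold change was 0.32 for 10 neuronal activity genes, of which 10 were above 0 and 3 (Dusp1, Egr1 and Junb) had an unadjusted p below 0.05, and 0.35 for 8 direct glucocorticoid target genes, of which 8 were above 0 and 7 had an unadjusted p below 0.05. Of all genes tested, 52.6% were above 0 and 1.57% were higher at an unadjusted p below 0.05. None of the genes of either list had an adjusted p below 0.2 by edgeR's quasi-likelihood test. This test called 0 of all genes at that threshold, where DESeq2 and edgeR's likelihood ratio test called 75 and 77. The study, with its own processing, reported changed genes at this threshold, and its qPCR found Dusp1 and Sgk1 higher after ethanol. Both lists were chosen with earlier results of these data known and hold genes that the study itself singled out, among them Dusp1 and Sgk1, so their counts are no independent evidence. The difference between these lists and the stress-response genes was not tested.

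**Figure D4:**
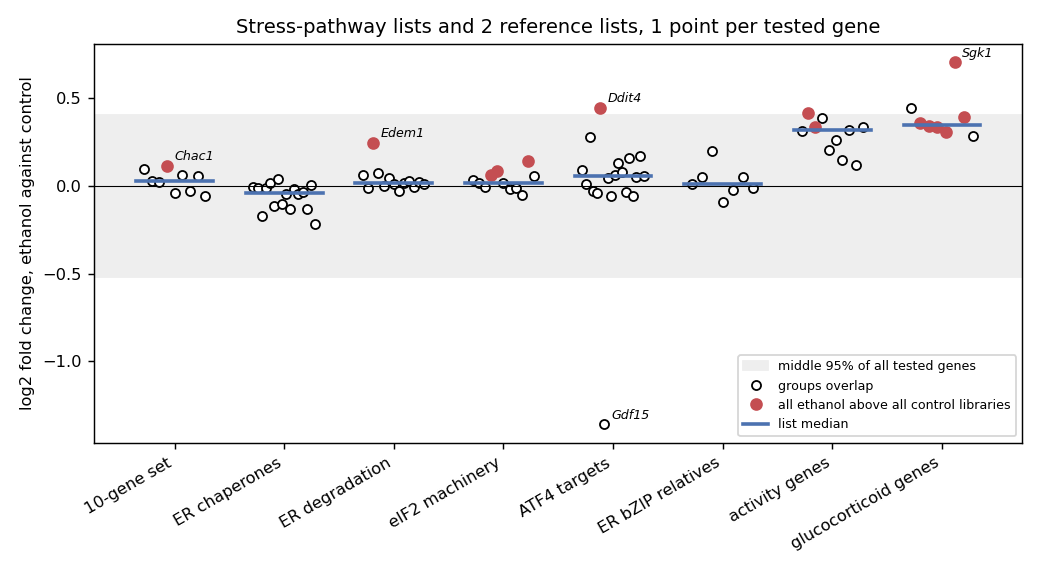
Log2 fold change, ethanol against control, of each tested gene (points) in the 10-gene set, the 5 wider stress-pathway lists and the lists of activity and glucocorticoid genes, with list medians as blue bars, filled red points for genes whose 3 ethanol libraries all exceeded the 3 control libraries, and the middle 95% of all tested genes in grey. The medians of the stress lists lie between -0.04 and 0.05, and those of the activity and glucocorticoid lists at 0.32 and 0.35.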

How the data were processed

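Amygdala RNA was measured by single-end, strand-specific mRNA-seq in 6 libraries. The authors deposited raw counts per gene, without normalization. Per the submitters' processing notes, reads were aligned with STAR 2.7.0f to Rnor_6.0, and per the file headers they were counted with featureCounts 1.6.3 over exons with strand setting 2. Its defaults leave out reads that map to several places or overlap several genes, which lowers genes with near-identical copies. Symbols were matched to 29322 of 38445 gene identifiers through a RefSeq table of GRCr8, and 9123 had none; the marker Ccdc153 was not matched.

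Counts were analyzed with edgeR 4.0.16 in R 4.3.3 (limma 3.58.1 and DESeq2 1.42.0 for alternatives). Genes were kept by filterByExpr (minimum 10 counts, 15 in total), which left 18141, and scaled by TMM (factors 0.976 to 1.01). Groups were compared by the quasi-likelihood F test, adjusted by Benjamini-Hochberg across the tested genes, at the study's threshold of 0.2. The standard error is the absolute log2 fold change divided by the square root of F, and the 95% interval uses the test's degrees of freedom. Levels are CPM; log2 CPM carries a prior count of 2. Exact permutation tests were 2-sided over 20 arrangements. Reads had no molecular identifiers. P-values measure the spread between pools of 2 rats. The fit was also run on simulated counts with known changes, drawn from a common mean for each gene. The spread of those counts followed the trend over expression level and not the spread of each gene itself. Those counts lacked the differences in cell type markers between libraries seen here, so the run cannot show how the fit handles them. Replicate libraries were not duplicates (chi-square per degree of freedom 14.3 to 67.6).

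The genes named were the 10 members, the 3 most abundant genes and the 3 with the smallest p of each stress-pathway list, and the 3 genes most like the member with the smallest p. Of the activity and glucocorticoid lists only Dusp1, Egr1, Junb and Sgk1 were named. Hspa5, Sdf2l1, Cebpb, Ttr, Enpp2 and the genes listed at 0 were named after their values were seen. Members and lists were chosen with earlier results of these data known. Alternatives were library size or RLE scaling, other filters and tools, the replicate number as a block and each library left out.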

Additional observations from a re-analysis of the deposited data

How the results depend on the processing

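Under 14 alternatives (13 for Atf3, which a filter at 1 CPM left out), 0 of the tested stress-response genes had an adjusted p below 0.2 or an unadjusted p below 0.05, and Eif2ak3, Chac1 and Herpud1 kept a value above 0 in every one. Values this close to 0 crossed it easily. Atf6 was at -0.00429 with library size alone, and with 1 library left out it ranged from -0.0213 to 0.0923, Atf4 from -0.0288 to 0.0806, Ddit3 from -0.144 to 0.0157, Xbp1 from -0.12 to 0.0428, Ern1 from -0.10 to 0.0324 and Atf3 from -0.071 to 0.24. Atf3 was at -0.071 without ethanol replicate 1, Atf4 at -0.0288 without control replicate 2, Xbp1 at 0.0428 without control replicate 3 and Ern1 at 0.0324 without ethanol replicate 2. Ddit3 was at 0.013, 0.0157 and 0.00729 without control replicate 3, ethanol replicate 1 and ethanol replicate 2, and Atf6 at -0.0134, -0.00194, -0.00174 and -0.0213 without control replicates 1 and 3 and ethanol replicates 1 and 2. The median of the tested members was 9.89e-05 with library size alone and ranged from 0.0136 to 0.0555 with 1 library left out. Library size alone moved the median of all genes from 0.01 to -0.02.

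Over all genes, the number with an adjusted p below 0.2 was 75 with DESeq2 and 77 with edgeR's likelihood ratio test, 83 without ethanol replicate 3, 4 without ethanol replicate 1 and 0 without any other library; the cause was not tested. The number of wider pathway genes with an unadjusted p below 0.05 ranged from 1 to 5 with 1 library left out: 1 without control replicate 1, 3 without control replicate 2 or ethanol replicate 2, 4 without ethanol replicate 1 and 5 without ethanol replicate 3. With the replicate number as a block it was 5 (Sdf2l1, Edem1, Slc3a2, Ddit4 and Cebpb), 0 of the members had an adjusted p below 0.2, and 1015 genes in place of 752 had an unadjusted p below 0.05. Libraries of the same number come from different rats, so the numbers were not taken as pairs. Over 14760 genes the deviations of libraries with the same number correlated by 0.0724, 0.332 and 0.207. Those of libraries with unlike numbers correlated by -0.355 to 0.213. Whether libraries of the same number share something in their handling was not tested. Depth limits what can be said of Trib3, Atf3 and Gdf15.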
